A study of Homo sapiens with 3 samples.

Results

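Ribosome footprints in HEK293T cells expressing G245S p53 were compared with those in cells expressing R273H p53. The comparison took the 3 G245S columns and the 3 R273H columns of the deposited count table, each column 1 dish of cells, and all 19820 of 63241 listed genes that passed a filter on low counts. These 6 dishes were part of a series of 9. The other 3 dishes expressed wild-type (WT) p53. They entered the filter and the shared estimate of spread, and their levels are given beside the mutants for context. HEK293T is an embryonic kidney line that makes the large T antigen of SV40, to which p53 binds, and every group carried an added p53 construct on that background. The methods describe stable lines made with lentivirus and kept in puromycin, with no clones named. The labels call the cells stable in one field and transiently transfected in another, and the treatment entry of both mutants names the wild-type construct, so the way the mutants were expressed could not be settled from them. Dishes were exposed to cycloheximide, which stalls elongating ribosomes, for 2 min before harvest, and micrococcal nuclease (3 U for each µg of RNA, 30 min) trimmed the lysates to protected fragments. The 3 dishes of a group were pooled at reverse transcription, so a difference between the mutants and a difference between these pools cannot be told apart. The methods call the dishes independent and the replicates biological. Neither the methods nor the labels say whether dishes came from separate cultures, so p-values measure only the spread between dishes.

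p53 is a transcription factor that switches on genes of cell-cycle arrest, DNA repair and apoptosis. G245S and R273H are both hotspot substitutions of its DNA-binding domain. The glycine lost in G245S lies in a loop that shapes the DNA-binding surface, and its loss disturbs local structure. The arginine lost in R273H contacts DNA directly, and its loss leaves the fold largely intact. Ribosome profiling sequences the mRNA fragments that ribosomes protect from nuclease. In these bulk lysates, fewer cells expressing a gene and less of it per cell cannot be told apart. A footprint level combines how much of an mRNA a cell holds with how densely ribosomes occupy it, and no matched RNA library was used here to separate them. Levels are given as CPM, footprint counts scaled to a common library size, and fold changes as log2 of G245S over R273H with their standard error (SE). A gene is called higher or lower in G245S when its adjusted p in edgeR's quasi-likelihood test, corrected by the Benjamini-Hochberg method over all 19820 genes, was below 0.05.

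Library totals were 18719212 to 21620818 expected counts in G245S and 23274140 to 24595383 in R273H, so the R273H libraries were deeper by more than the spread between dishes. All 5 markers fixed for HEK293T (PAX2, LIN28B, NEFM, NEFL and VIM) passed the filter, with a summed level of 1407 to 1430 CPM in G245S and 1363 to 1378 CPM in R273H. The hepatocyte and endothelial markers did not pass it. Only 2 of 6 colon markers, 2 of 4 fibroblast markers and 1 of 4 leukocyte markers did, at summed levels of up to 48.7 CPM in the mutants. VIM (vimentin, an intermediate filament protein) made up most of the HEK293T marker sum and was itself higher in G245S, at 983 ± 15.6 against 912 ± 9.26 CPM (log2 fold change 0.11, SE 0.0218, adjusted p = 0.00483). The other 4 HEK293T markers were not called, and their log2 fold changes were -0.08 for NEFM, -0.07 for NEFL, -0.03 for PAX2 and -0.01 for LIN28B.

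In the main fit few genes were called, and most called differences were small. Of the 19820 genes, 513 (2.59%) passed the test, 368 (1.86%) of them higher and 145 (0.732%) lower in G245S. Without adjustment, 3120 of the 19820 genes had p below 0.05 in the same test. The median size of the called differences was 0.18 on the log2 scale. The median was 0.16 for genes called higher and -0.30 for genes called lower. Of all calls, 163 exceeded 1.2-fold. When a difference of more than 1.2-fold was tested for, 3 genes were left, all noncoding and below 100 counts on average: RNU4-7P, higher in G245S, and SNORA75 and SNORD6, lower. The 3 dishes of one mutant did not overlap the 3 of the other for 4260 genes (21.5%), all 513 called genes among them. Calls concentrated where counts were high. With genes split by level into 5 equal bins, they made up 7.32% of the highest bin, above 56.6 CPM, and 0.706% of the lowest. In that highest bin 244 of 3964 genes were called higher and 46 lower, a nearer measure for lists of highly expressed genes. All 34 called changes larger than 1 on the log2 scale fell on genes with a mean count under 100, 3 of them protein-coding. At the edge of the call, the last genes inside were BOLA2, ZNF362 and H2AZ2P1 (adjusted p 0.0499 each) and the nearest outside were CD81, ILF2 and SLC25A5 (0.0502, 0.0503 and 0.0504). The number of calls rested on single dishes: without G245S dish 1 it was 162, and without dish 3 of every group it was 1026.

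**Figure D1:**
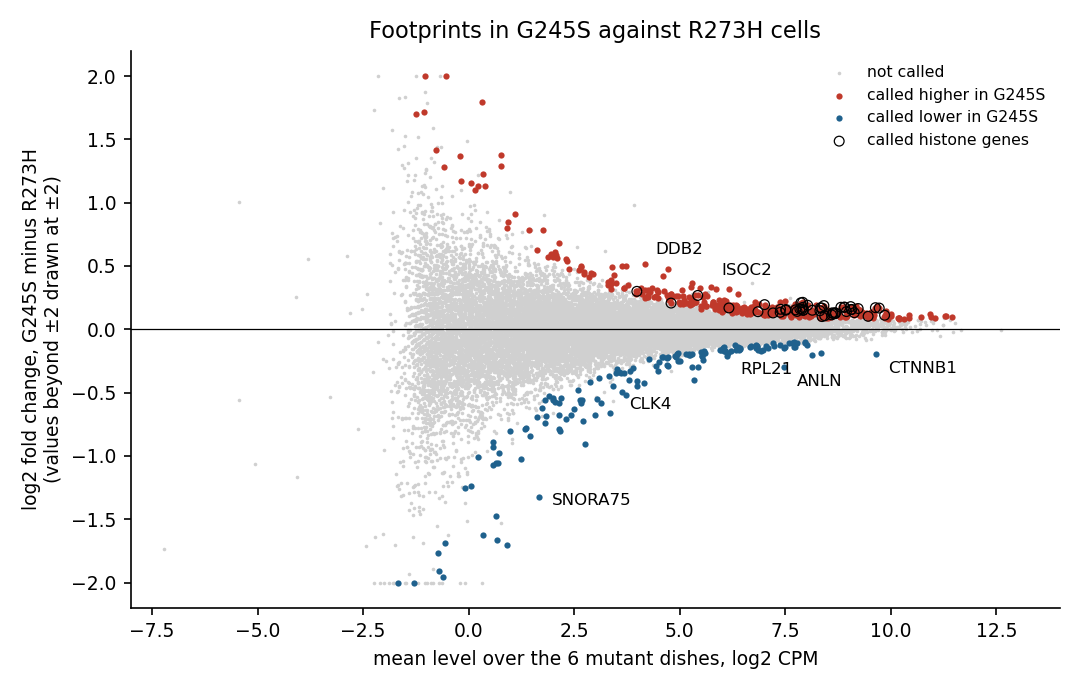
Log2 fold change of G245S over R273H for each of 19820 genes against its mean level over the 6 mutant dishes in log2 CPM. The 368 genes called higher (red) outnumber the 145 called lower (blue) and the circled histone genes, those called, all lie above 0.

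Among known p53 target genes, 3 of 47 tested were called higher in G245S and 0 lower, against 1.86% and 0.732% of all genes. Without adjustment, 11 were higher and 2 lower at p below 0.05. DESeq2 called 3 higher and 0 lower, with an adjusted p for only 25 of the 47. The list had a median log2 fold change of 0.05, against 0.00 over all genes. DDB2, which recognizes ultraviolet-damaged DNA for nucleotide excision repair, lies on chromosome 11 (positions 47214465 to 47239217, plus strand, GRCh38). Its footprints reached 20.9, 22.3 and 20.3 CPM in the G245S dishes and 14.4, 15.9 and 14.2 CPM in the R273H dishes. Every G245S dish was above every R273H dish (log2 fold change 0.51, SE 0.0643, adjusted p = 4.35e-05), and the call held whichever dish was left out. Both were far below the WT dishes, at 126 ± 3.46 CPM (SD, n = 3 dishes). BAX, a pore-forming protein of mitochondrial apoptosis, measured 77.5, 79.6 and 76.3 CPM in G245S and 65.9, 69.3 and 69.0 CPM in R273H. These dishes did not overlap (log2 fold change 0.19, SE 0.0362, adjusted p = 0.00268), and the WT level was 152 ± 2.63 CPM. EPHX1 (microsomal epoxide hydrolase, a detoxifying enzyme) was called with a smaller difference, 108 ± 3.43 against 98.6 ± 2.60 CPM (log2 fold change 0.13, SE 0.0343, adjusted p = 0.0365), a call lost in 5 of 9 fits that left out 1 dish. Unlike DDB2 and BAX, its WT level, at 96.5 ± 2.03 CPM, was not above the mutants.

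The targets most used as readouts of p53 did not pass in the main fit. CDKN1A, the p21 inhibitor of cyclin-dependent kinases, measured 16.2, 16.5 and 15.8 CPM in G245S and 13.5, 14.4 and 13.7 CPM in R273H. Its dishes did not overlap, but the adjusted p was 0.0880 (log2 fold change 0.22, SE 0.0680). Over the alternative fits the adjusted p of CDKN1A ranged from 0.0410 to 0.256, so whether it was called depended on the fit. MDM2, the ubiquitin ligase that degrades p53, measured 73.3, 75.7 and 81.5 CPM in G245S and 79.0, 73.4 and 77.7 CPM in R273H, and the groups overlapped (log2 fold change 0.00, SE 0.0549, adjusted p = 0.981). WT levels of these genes were 61.1 ± 2.27 CPM for CDKN1A and 860.3 ± 49.3 CPM for MDM2. Set against WT, the list's median log2 fold change was -1.0 for G245S and -0.99 for R273H, comparisons that share the WT dishes.

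**Figure D2:**
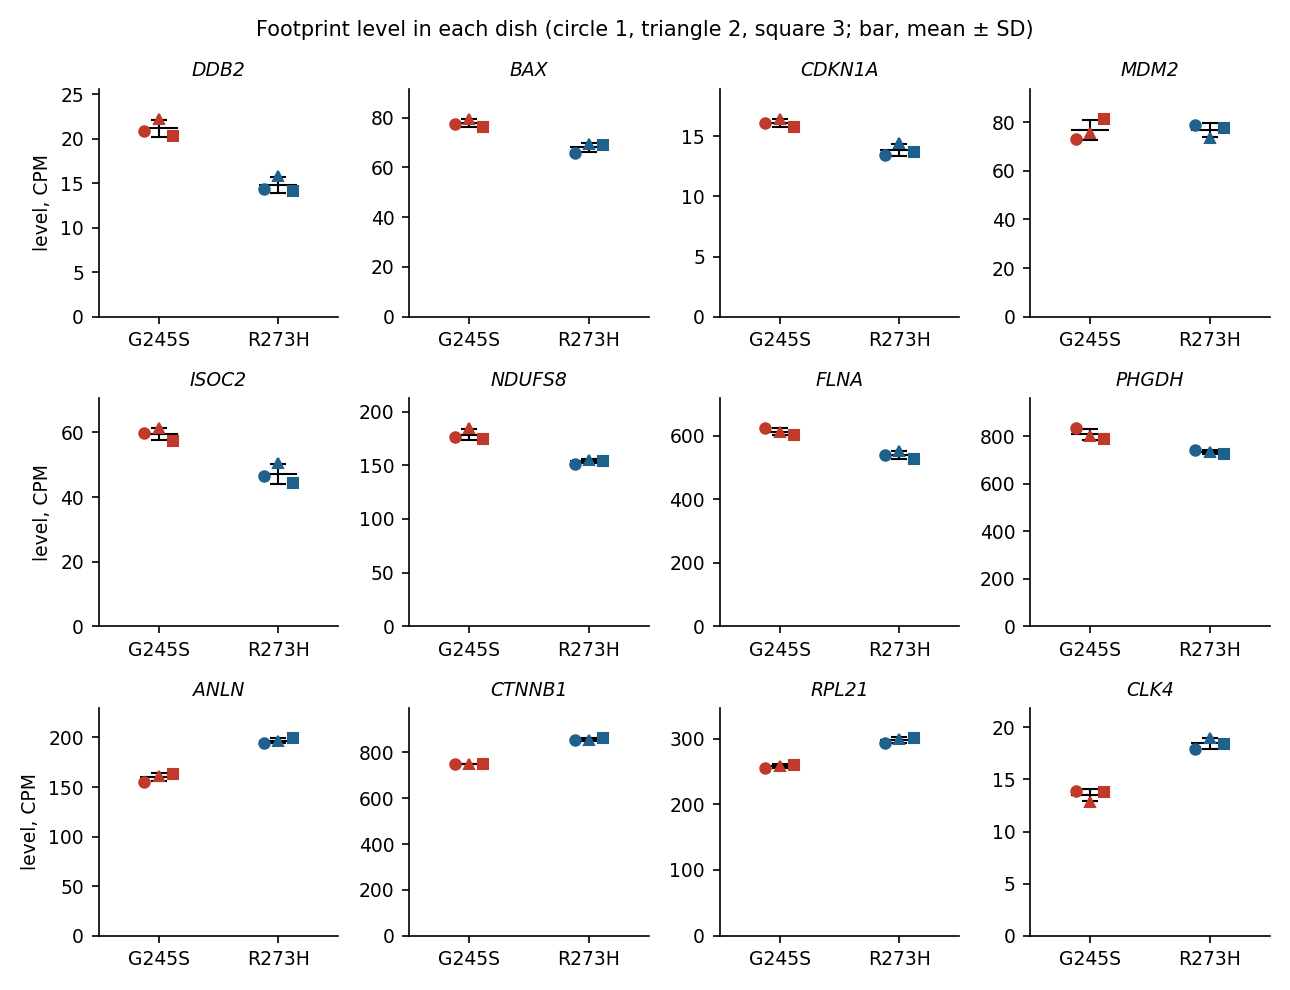
Footprint level in CPM (vertical axes, from 0) of 12 genes in the 3 G245S dishes (red) and the 3 R273H dishes (blue), with the mean and SD as bars. DDB2, BAX, ISOC2, NDUFS8, FLNA and PHGDH are higher in every G245S dish, ANLN, CTNNB1, RPL21 and CLK4 are lower in every G245S dish, the CDKN1A dishes do not overlap although it was not called, and the MDM2 dishes overlap.

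The largest group of calls was the replication-dependent histone genes, which are made in S phase from mRNAs that end in a stem-loop instead of a poly(A) tail. Of 65 tested, 47 were called higher in G245S and 0 lower, against 1.86% and 0.732% of all genes. At an unadjusted p below 0.05, 55 were higher and 0 lower, and DESeq2 called 45 higher and 0 lower. The median log2 fold change was 0.15, and 61 of 65 were above 0. Called members ranged from 0.10 to 0.30 on the log2 scale. Of the 18 not called, 14 had fewer than 50 CPM in R273H. All 5 families took part. Higher calls numbered 3 of 5 among H1 linker histones, 13 of 16 among H2A, 12 of 17 among H2B, 8 of 12 among H3 and 11 of 15 among H4 genes. None passed when more than 1.2-fold was tested for. The members not called ranged from -0.25 to 0.64.

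Because copies of a histone are nearly identical in sequence and expected counts can divide shared reads among them, single copies are uncertain and the family sums are the firmer measure. Summed over the 65 genes, footprints reached 18322, 17818 and 17297 CPM in the G245S dishes and 15799.7, 15936 and 16478 CPM in the R273H dishes. The lowest G245S dish lay above the highest R273H dish. The WT dishes, at 17171, 16922 and 17558 CPM, lay nearer to G245S. H1 sums were 2064, 1994 and 1947 CPM in G245S and 1716, 1747 and 1853 CPM in R273H, and none of the other 4 families overlapped between the mutants either. As a share of all counts, the G245S dishes gave these histones 1.76% ± 0.0468 and the R273H dishes 1.61% ± 0.0275 (SD, n = 3 dishes each), an exact two-sided permutation p of 0.1, the smallest that 3 against 3 dishes allow (0.3 adjusted over 9 such measures). In each comparison's own fit, the median of the list was 0.06 for G245S over WT and -0.10 for R273H over WT.

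Named by the smallest p, H1-3 (chromosome 6, positions 26234212 to 26234987), H2AC25, H2BC18 and H2AC12 led the list. H1-3 gave 259, 260.4 and 257 CPM in G245S and 218, 222 and 229 CPM in R273H (log2 fold change 0.21, SE 0.0272, adjusted p = 4.35e-05). H2AC25 gave 257, 252 and 243 and 214, 217 and 219 CPM (log2 fold change 0.21, SE 0.0268, adjusted p = 4.35e-05), again with no overlap. H2BC3 had the largest called difference of the family, 17.5 ± 0.341 against 14.2 ± 0.708 CPM (log2 fold change 0.30, SE 0.0713, adjusted p = 0.0189), at a low level. H2AX, a variant that marks DNA breaks when phosphorylated and is not in the list, was singled out after its values were seen: 198, 197 and 186 CPM in G245S and 164, 165 and 167 CPM in R273H (log2 fold change 0.23, SE 0.0290, adjusted p = 4.35e-05). Leaving out 1 dish at a time gave between 26 and 48 histone genes called higher, and never 1 called lower. The lowest count came without G245S dish 1, and counts of 29, 29 and 30 came without G245S dish 2, R273H dish 1 and R273H dish 2.

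**Figure D3:**
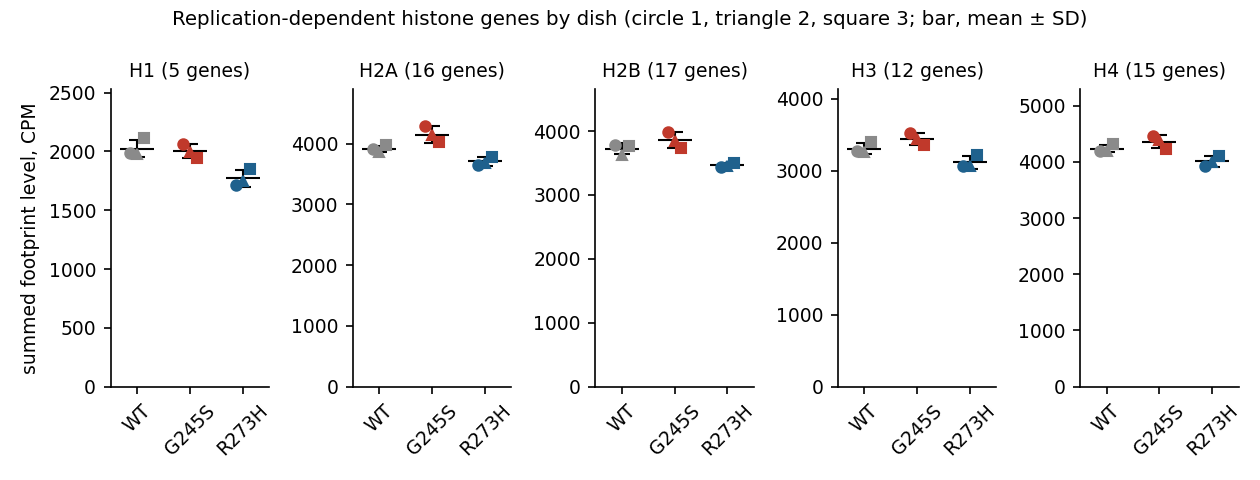
Summed footprint level in CPM (vertical axes, from 0) of each histone family by dish, with the mean and SD as bars. In all 5 families the 3 R273H dishes (blue) sit below the 3 G245S dishes (red), and the WT dishes (grey) sit above R273H.

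Genes called in either direction differed in the composition of their coding regions. Among protein-coding genes, the 286 called higher had a median coding length of 897 nt and a median GC content of 60.5%. The 47 called histone genes are among these 286, and the 65 histone genes tested had medians of 384 nt and 61.2%. Medians without the histone genes were not taken. The 89 called lower had medians of 1881 nt and 44.4%, and the 10521 uncalled genes averaging 100 counts or more had 1413 nt and 51.2%. At the third position of codons, where a base can often change without changing the amino acid, G or C made up a median of 75.4% in genes called higher, 40.9% in genes called lower and 56.6% in those uncalled genes. The 3′UTR was shorter in genes called higher (median 318 nt) than in genes called lower (1257 nt) or in those uncalled genes (1415 nt). The 6-base motif GGCTGG was searched on the sense strand of annotated 3′UTRs. It occurred in 28.6% of those of genes called higher and 27% of those of genes called lower. The share was 47.9% of all tested and 48.6% of the uncalled genes averaging 100 counts or more. A longer 3′UTR has more room for a motif, and the shares were not adjusted for length or for base composition. Between genes called lower and those uncalled genes the median length differed less, at 1257 against 1415 nt. These are descriptions of the calls, with no test.

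The opening codons of a few genes from opposite ends of coding GC content illustrate the contrast, which that choice fixed in advance. The sequences run from the start codon, 5′ to 3′, with the base at the third position of each codon in capitals. They were picked as the smallest p among higher calls in the highest of 5 bins of coding GC content and among lower calls in the lowest bin, among genes whose first 10 codons lie in 1 exon, and come from the GENCODE annotation and genome GRCh38, all on the minus strand.
H2AX, higher, chr11:119095365-119095394: atGtcGggCcgCggCaaGacTggCggCaaG
H2AC25, higher, chr1:228457788-228457817: atGtcCggTcgTggTaaGcaGggTggCaaG
CLK4, lower, chr5:178623387-178623416: atGcgGcaTtcCaaAagAacTcaCtgTccT
LUM, lower, chr12:91108950-91108979: atGagTctAagTgcAttTacTctCttCctG
G or C stood at the third position in 9 of 10 codons for H2AX, 6 for H2AC25, 4 for CLK4 and 4 for LUM. Over the whole coding regions it was 92.3%, 91.5%, 37.0% and 45.9%.

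The same gradient ran through protein-coding genes as a whole. Those averaging 100 counts or more were divided into 5 equal bins by G or C at the third codon position, and the median log2 fold change ran from -0.04 in the lowest bin to 0.06 in the highest. Higher calls numbered 0, 10, 39, 82 and 147 from the lowest to the highest bin, and lower calls 37, 25, 11, 4 and 2. Dishes of one group also differed along this axis. Across the 10886 genes, the Spearman correlation of a library's deviation from the mean library with coding GC content was 0.344, 0.297 and -0.185 in the G245S dishes and -0.181, -0.139 and -0.423 in the R273H dishes. The groups overlapped (exact two-sided permutation p = 0.3, adjusted 0.45), and dish 3 was the lowest of its group in all 3 groups. With coding length, the correlations were -0.0115, 0.0469 and 0.115 for the G245S dishes, against 0.184, 0.195 and 0.139 for R273H, with no overlap (p = 0.1, the smallest possible, adjusted 0.3). When each library's trend with coding length and GC content was removed, 491 genes were called, 340 of them higher, and 357 of the 513 calls were kept. The histone list then had 19 called higher and 0 lower, and its median was 0.10 instead of 0.15. Without dish 3 of every group, 50 histone genes were called higher and 0 lower. Of the 91 called genes named here by rule, 20 lost their call with the trend removed: NUDT8, MED26, NUDT10, THAP6, TOMM40, SLC1A5, RPS15, EEF2, MYBBP1A, GADD45GIP1, MRPL34, MRPL38, MVD, DHCR7, HSPA1B, LIG1, HNRNPA0, HNRNPL, ACTG1 and ACTB. Their differences kept their direction. THAP6 went from -0.34 to -0.30, MED26 from 0.33 to 0.28 and NUDT8 from 0.36 to 0.28 on the log2 scale, while RPS15 went from 0.14 to 0.08 and ACTB from 0.10 to 0.05. The part of base composition in these calls was not tested further.

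**Figure D4:**
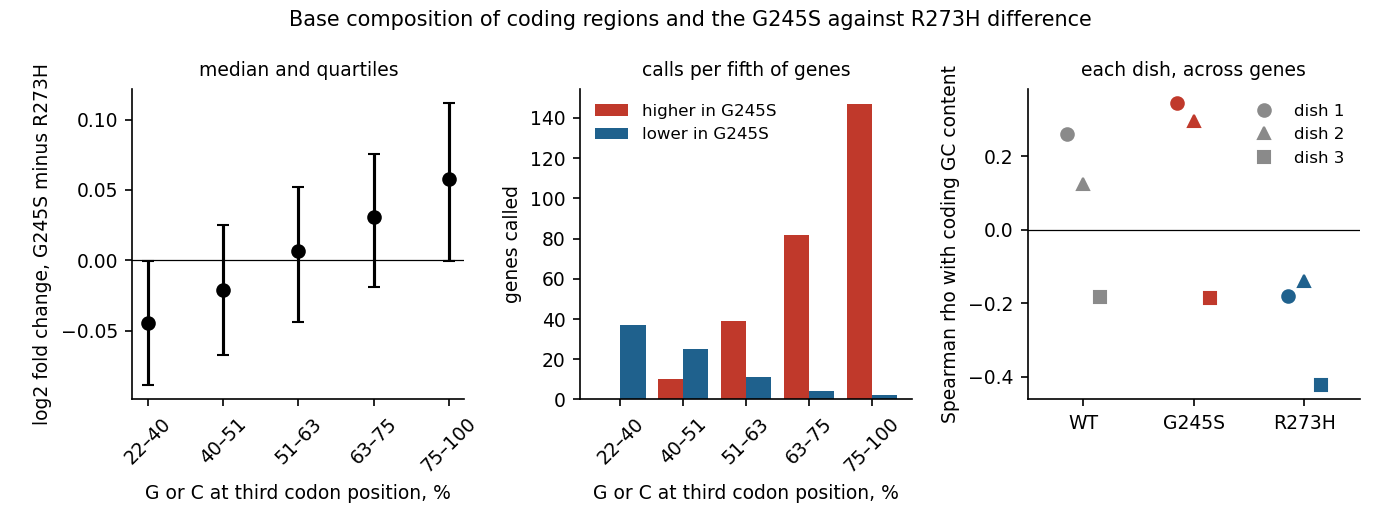
Left, median and quartiles of the log2 fold change of G245S over R273H in 5 equal bins of genes by percent G or C at the third codon position; middle, number of genes called higher (red) and lower (blue) in each bin; right, Spearman correlation of each dish's deviation with coding GC content across genes. Higher calls rise from 0 to 147 and lower calls fall from 37 to 2, and dish 3 (squares) is lowest in each group.

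Other protein-coding genes called higher were led in size by genes of modest level. After DNAJC25-GNG10, a readthrough of neighbouring genes whose reads cannot be told from theirs (log2 fold change 0.56, SE 0.130, adjusted p = 0.0164), and DDB2 came ENSG00000255439, which also overlaps other genes on its strand (log2 fold change 0.50, SE 0.0872, adjusted p = 0.00160). DPYSL4, a dihydropyrimidinase-like protein of neurons, measured 12.2, 11.6 and 11.3 CPM in G245S and 8.82, 9.30 and 8.54 CPM in R273H (log2 fold change 0.39, SE 0.0974, adjusted p = 0.0241), a call lost in 5 of the 9 fits that left out 1 dish. ISOC2, an isochorismatase-domain protein, was higher in every G245S dish, at 59.8, 61.3 and 57.5 against 46.6, 50.6 and 44.4 CPM (log2 fold change 0.33, SE 0.0473, adjusted p = 1.48e-04), and kept its call with every dish left out. CRAT, the mitochondrial carnitine acetyltransferase, measured 17.1 ± 0.941 against 13.9 ± 0.667 CPM (log2 fold change 0.30, SE 0.0731, adjusted p = 0.0223), a call lost in 3 of those fits. C11orf24 measured 27.1 ± 0.677 against 22 ± 0.653 CPM (log2 fold change 0.30, SE 0.0582, adjusted p = 0.00347). NUDT8 and NUDT10, hydrolases of the Nudix family, had log2 fold changes of 0.36 and 0.29. MED26, a Mediator subunit, had 0.33, and NRM, the inner nuclear membrane protein nurim, had 0.31. In these 4 genes the call was lost in 4 to 6 of the 9 fits that left out 1 dish. NOTCH2, a receptor of cell-to-cell signalling singled out afterwards for its small p, measured 249, 241 and 243 CPM in G245S and 213, 214 and 212 CPM in R273H (log2 fold change 0.20, SE 0.0257, adjusted p = 5.74e-05). MARCKS, an actin-linked membrane protein singled out in the same way, measured 319 ± 9.91 against 279.5 ± 2.91 CPM (log2 fold change 0.19, SE 0.0263, adjusted p = 1.21e-04).

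Genes called lower in G245S held the single smallest p of the comparison. ANLN (anillin, a scaffold of the contractile ring in cytokinesis; chromosome 7, positions 36389821 to 36453791, plus strand) measured 155, 161 and 163 CPM in G245S and 195, 196 and 199.8 CPM in R273H (log2 fold change -0.30, SE 0.0294, adjusted p = 1.34e-06). CTNNB1 (β-catenin, of cell adhesion and Wnt signalling), singled out after its values were seen, measured 749.8, 751 and 748 CPM and 853, 855 and 864 CPM, a tight separation (log2 fold change -0.19, SE 0.0216, adjusted p = 1.10e-05). SPTAN1, the spectrin of the membrane skeleton, also singled out, measured 305, 307 and 307 and 357, 344 and 344 CPM (log2 fold change -0.19, SE 0.0257, adjusted p = 1.05e-04), with WT at 500.2 ± 12.8 CPM. All 3 calls held with every dish left out and with the base-composition trend removed.

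Several genes of low level were lower by larger amounts. CLK4, a kinase of splicing factors, measured 13.9, 12.8 and 13.8 CPM in G245S and 17.9, 19.0 and 18.4 CPM in R273H (log2 fold change -0.45, SE 0.0735, adjusted p = 7.61e-04), while WT stood at 18.5 ± 1.40 CPM. MAPK8IP3, a scaffold of JNK signalling and axonal transport, measured 9.06 ± 0.348 against 12.4 ± 0.393 CPM (log2 fold change -0.45, SE 0.0853, adjusted p = 0.00304). LUM (lumican, a matrix proteoglycan) measured 15.3, 15.3 and 14.8 CPM in G245S and 19.7, 19.4 and 21.6 CPM in R273H (log2 fold change -0.42, SE 0.0702, adjusted p = 9.11e-04). LUM was also one of the 4 fibroblast markers, of which DCN and COL1A2 did not pass the filter and COL1A1 gave 28.2 ± 2.78 and 27.5 ± 1.35 CPM. SERPINI1 (neuroserpin, a protease inhibitor) measured 13.6 ± 0.203 against 18 ± 0.624 CPM (log2 fold change -0.41, SE 0.0735, adjusted p = 0.00191). CCDC57, THAP6 and C4orf33 had log2 fold changes of -0.38, -0.34 and -0.33, and each lost its call in 5 or 6 of the 9 fits that left out 1 dish. NPIPB5, with log2 fold change -0.66, SE 0.119, adjusted p = 0.00268, belongs to a family of near-identical copies on chromosome 16 and is uncertain. KRT8 (keratin 8), singled out, was lower at 35.3 ± 0.689 against 43.4 ± 1.07 CPM (log2 fold change -0.30, SE 0.0477, adjusted p = 5.27e-04), and can share reads with 51 annotated pseudogenes. GLDC, of the glycine cleavage system, also singled out, measured 38.7 ± 1.70 against 47.6 ± 0.607 CPM (log2 fold change -0.30, SE 0.0483, adjusted p = 7.37e-04). The remaining calls by size were ENSG00000288258 (log2 fold change -0.56, SE 0.126, adjusted p = 0.0129) and ENSG00000286192 (log2 fold change -0.48, SE 0.133, adjusted p = 0.0473), plus 2 other unnamed identifiers, all overlapping other genes on their strand.

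For the machinery of translation, cytosolic ribosomal protein genes gave 11 of 84 called higher and 1 lower, against 1.86% and 0.732% of all genes, with a median log2 fold change of 0.04. RPS15 measured 979, 991 and 993 CPM in G245S and 883, 892 and 909 CPM in R273H (log2 fold change 0.14, SE 0.0224, adjusted p = 4.62e-04). RPS2 (log2 fold change 0.14, SE 0.0247, adjusted p = 0.00191) and RPL35 (log2 fold change 0.14, SE 0.0265, adjusted p = 0.00345) were higher too. RPL21 went the other way, with 256, 259 and 261 CPM in G245S and 293, 299.8 and 301 CPM in R273H (log2 fold change -0.21, SE 0.0266, adjusted p = 4.35e-05), and has 133 annotated pseudogenes with which it can share reads. The higher calls moved between 2 and 17 when 1 dish was left out, and without dish 3 of every group they numbered 34. Together these genes took 6.38% ± 0.0480 of G245S counts and 6.29% ± 0.0376 of R273H counts (SD over 3 dishes), with overlap between the groups.

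Of 50 initiation and elongation factors, 3 were higher and 0 lower (4 lower without adjustment and 0 in DESeq2), against 1.86% of all genes called higher. Most of these factors lie above 56.6 CPM, in the bin where 244 of 3964 genes were called higher. EEF1G, a subunit of the complex that reloads eEF1A, had log2 fold change 0.14, SE 0.0251, adjusted p = 0.00196. EEF2, the translocase, had log2 fold change 0.12, SE 0.0226, adjusted p = 0.00330. EIF4G1, the scaffold of cap-dependent initiation, had log2 fold change 0.09, SE 0.0205, adjusted p = 0.0158. EEF2 measured 2081, 2025 and 1952 CPM in G245S and 1843, 1846 and 1897 CPM in R273H, with no overlap. Higher calls in this list moved between 1 and 6 when 1 dish was left out. Of 44 ribosome biogenesis genes, TCOF1 (log2 fold change 0.11, SE 0.0273, adjusted p = 0.0196) and MYBBP1A (log2 fold change 0.10, SE 0.0253, adjusted p = 0.0299), both nucleolar, were higher and 0 lower (1 without adjustment and 0 in DESeq2), and each lost its call in 5 of the 9 fits that left out 1 dish. Cytosolic aminoacyl-tRNA synthetases gave 0 calls among 20 in edgeR, with 3 higher and 1 lower at an unadjusted p below 0.05 and 1 higher in DESeq2. Of 29 genes of mTOR signalling, LAMTOR1, which anchors mTORC1 at the lysosome, was higher (log2 fold change 0.25, SE 0.0608, adjusted p = 0.0241) and 0 lower (1 without adjustment and 0 in DESeq2), a call lost in 4 such fits. The median log2 fold change was 0.01 in each of these 4 lists, beside 0.00 over all genes.

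Mitochondrial genes were examined because the study centres on mutant p53 at mitochondria. Of the 13 genes encoded by mitochondrial DNA, which are translated by mitochondrial ribosomes, 4 were called higher in G245S and 0 lower, against 1.86% and 0.732% of all genes, with a median of 0.09. Without adjustment 8 were higher and 2 lower, and DESeq2 called 4 higher and 0 lower. MT-CO1, the catalytic subunit of complex IV, measured 652, 645 and 630.3 CPM in G245S and 596, 586 and 606 CPM in R273H (log2 fold change 0.11, SE 0.0230, adjusted p = 0.00763). MT-ATP6 of the ATP synthase (log2 fold change 0.13, SE 0.0274, adjusted p = 0.00578), MT-CO3 (log2 fold change 0.11, SE 0.0261, adjusted p = 0.0243) and MT-CYB of complex III (log2 fold change 0.09, SE 0.0243, adjusted p = 0.0320) were the others. Together the 13 genes took 0.322%, 0.318% and 0.316% of counts in the G245S dishes and 0.309%, 0.303% and 0.308% in the R273H dishes, with no overlap (exact two-sided permutation p = 0.1, the smallest possible, adjusted 0.3). Both were below the 3 WT dishes, at 0.336% to 0.343%. How far the sequenced monosome fraction held mitochondrial ribosomes was not tested, which limits these values. Leaving out 1 dish gave between 0 and 5 of these genes called, and removing the base-composition trend gave 7.

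Of 81 nuclear genes for subunits of oxidative phosphorylation, 6 were called higher and 0 lower, against 1.86% and 0.732% of all genes, with a median of 0.03. Most of these genes lie above 56.6 CPM, in the bin where 244 of 3964 genes were called higher and 46 lower, a nearer measure. Without adjustment 24 were higher and 5 lower, DESeq2 called 9 higher and 0 lower, and leaving out 1 dish gave between 2 and 12 higher calls. NDUFS8, an iron-sulfur subunit of complex I, led them with 177, 185 and 174 CPM in G245S and 152, 155 and 154 CPM in R273H (log2 fold change 0.22, SE 0.0293, adjusted p = 9.11e-05). COX8A of complex IV (log2 fold change 0.17, SE 0.0330, adjusted p = 0.00278), ATP5MC1 of the ATP synthase (log2 fold change 0.14, SE 0.0275, adjusted p = 0.00483) and UQCRQ of complex III (log2 fold change 0.11, SE 0.0284, adjusted p = 0.0251) followed, and ATP5MC2 and NDUFS7 were the others, at 0.10 and 0.12 on the log2 scale. COX7C, a complex IV subunit the study followed, measured 498, 495 and 486 CPM in G245S and 475, 463 and 483 CPM in R273H. Its dishes did not overlap, yet the difference was not called in the main fit (log2 fold change 0.06, SE 0.0239, adjusted p = 0.225). Over the alternative fits the adjusted p of COX7C ranged from 0.0140 to 0.571, so whether it was called depended on the fit.

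Mitoribosomal protein genes gave 4 higher and 1 lower of 83, against 1.86% and 0.732% of all genes. Of the 3964 genes above 56.6 CPM, 244 were called higher and 46 lower. GADD45GIP1 (log2 fold change 0.19, SE 0.0335, adjusted p = 0.00191), MRPL34 (log2 fold change 0.19, SE 0.0452, adjusted p = 0.0166), MRPL38 (log2 fold change 0.16, SE 0.0385, adjusted p = 0.0211) and MRPL17 (log2 fold change 0.12, adjusted p = 0.0411) were higher, and MRPS18C was lower (log2 fold change -0.13, SE 0.0316, adjusted p = 0.0210). The higher calls in this list moved between 1 and 8 when 1 dish was left out and fell to 0 once the base-composition trend was removed. Of 37 genes of mitochondrial protein import, 5 were higher and 0 lower, against 1.86% and 0.732% of all genes. Without adjustment 8 were higher and 6 lower, and DESeq2 called 5 higher and 0 lower. Leaving out 1 dish gave between 0 and 7 higher calls, and the list's median of 0.02 became -0.0037 with the trend removed. Within the outer-membrane TOM complex, TOMM22, a central receptor, measured 96.5, 94.1 and 89.4 CPM in G245S and 84.8, 80.9 and 83.7 CPM in R273H (log2 fold change 0.17, SE 0.0370, adjusted p = 0.0115), and TOMM40, the channel, measured 191, 187 and 178 and 171, 164 and 172 CPM (log2 fold change 0.13, SE 0.0334, adjusted p = 0.0313). The receptors TOMM70 (log2 fold change 0.04, SE 0.0321, adjusted p = 0.640) and TOMM20 (log2 fold change 0.00, SE 0.0257, adjusted p = 0.998) were not called and their dishes overlapped. TIMM17B of the inner-membrane translocase (log2 fold change 0.18, SE 0.0387, adjusted p = 0.00973), MTX1 of the outer membrane (log2 fold change 0.16, SE 0.0359, adjusted p = 0.0107) and ROMO1 (log2 fold change 0.11, adjusted p = 0.0349) were higher. AKAP1, an outer-membrane anchor of protein kinase A, was not called (log2 fold change 0.07, SE 0.0389, adjusted p = 0.382). TCA cycle enzymes gave 0 calls among 18 in edgeR and in DESeq2, with 3 higher and 1 lower at an unadjusted p below 0.05.

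In amino acid and stress metabolism, 4 of 34 genes of the ATF4 response were higher and 0 lower in edgeR, against 1.86% and 0.732% of all genes, with a median of 0.04. Without adjustment 8 were higher and 5 lower, and DESeq2 called 4 higher and 1 lower. With the trend removed 4 were higher and 1 lower. PHGDH, the entry enzyme of serine synthesis, measured 834, 803 and 787 CPM in G245S and 744, 736 and 727 CPM in R273H (log2 fold change 0.14, SE 0.0236, adjusted p = 0.00156). CBS of cysteine synthesis (log2 fold change 0.17, SE 0.0327, adjusted p = 0.00310), DDIT4, an inhibitor of mTORC1 (log2 fold change 0.23, SE 0.0453, adjusted p = 0.00377), and SLC1A5, a glutamine transporter (log2 fold change 0.12, SE 0.0241, adjusted p = 0.00422), followed. Cholesterol synthesis genes gave 2 higher and 0 lower of 29, MVD (log2 fold change 0.20, SE 0.0515, adjusted p = 0.0308) and DHCR7 (log2 fold change 0.11, SE 0.0316, adjusted p = 0.0496), with 0 lower also without adjustment and in DESeq2. The NRF2 pathway gave 2 higher and 0 lower of 20, TKT (log2 fold change 0.11, SE 0.0234, adjusted p = 0.00631) and TXN (log2 fold change 0.11, SE 0.0288, adjusted p = 0.0273), with 1 lower without adjustment and 0 in DESeq2. Leaving out 1 dish gave between 0 and 5 higher calls in the first list and between 0 and 2 in the second. Among 24 cytosolic heat shock proteins and chaperonin subunits, 4 were higher and 0 lower (1 without adjustment and 0 in DESeq2), and leaving out 1 dish gave between 2 and 6 higher calls. HSPA1B measured 909, 868 and 837 CPM in G245S and 761, 751 and 789 CPM in R273H (log2 fold change 0.18, SE 0.0262, adjusted p = 1.70e-04), and its near-identical neighbour HSPA1A gave log2 fold change 0.14, SE 0.0242, adjusted p = 0.00160, with reads that could be split between them. HSP90AB1 (log2 fold change 0.11, SE 0.0219, adjusted p = 0.00549) and CCT7 (log2 fold change 0.09, SE 0.0212, adjusted p = 0.0217) were the others. Glycolysis genes gave 0 calls among 25, with 6 higher and 1 lower without adjustment and 3 higher in DESeq2. Endoplasmic reticulum chaperones gave 0 among 23, with 2 higher and 3 lower without adjustment and 1 lower in DESeq2, and proteasome subunits 0 among 45, with 9 higher and 2 lower without adjustment and 1 lower in DESeq2.

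In the cell cycle, 3 of 45 DNA replication genes were higher and 0 lower (2 without adjustment and 0 in DESeq2), against 1.86% of all genes called higher: the helicase subunits MCM2 (log2 fold change 0.13, SE 0.0239, adjusted p = 0.00169) and MCM5 (log2 fold change 0.11, SE 0.0264, adjusted p = 0.0229) and the ligase LIG1 (log2 fold change 0.14, SE 0.0367, adjusted p = 0.0324). Higher calls numbered between 1 and 4 with 1 dish left out. In the highest bin by level, above 56.6 CPM, 244 of 3964 genes were called higher. Of 40 mitotic genes, 4 were higher, again between 1 and 4 with 1 dish left out, and ANLN alone was lower. MKI67, the Ki-67 proliferation marker, measured 239.6, 234.9 and 244.5 CPM in G245S and 215, 215 and 213 CPM in R273H (log2 fold change 0.16, SE 0.0282, adjusted p = 0.00160). PLK1 (log2 fold change 0.11, SE 0.0263, adjusted p = 0.0163), BUB3 (log2 fold change 0.11, SE 0.0291, adjusted p = 0.0406) and KIF20A (log2 fold change 0.10, adjusted p = 0.0487) were higher by less. Of the 9 fits that left out 1 dish, 4 lost the PLK1 call and 7 the BUB3 call. The list medians were 0.02 and 0.00, and dishes did not overlap for 17 of the 45 and 17 of the 40, against 21.5% of all genes. With the trend removed the mitotic median was 0.04.

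Of 22 actin and serum response factor targets, 4 were higher and 0 lower (1 without adjustment and 0 in DESeq2), against 1.86% of all genes called higher, with a median of 0.07. DESeq2 gave an adjusted p for 14 of the 22. With the trend removed 2 were called higher. FLNA, the actin cross-linker filamin A, measured 624, 612 and 602 CPM in G245S and 541, 551 and 527 CPM in R273H (log2 fold change 0.18, SE 0.0249, adjusted p = 9.11e-05), with FHL1 (log2 fold change 0.13, SE 0.0259, adjusted p = 0.00483), ACTG1 (log2 fold change 0.10, SE 0.0226, adjusted p = 0.010) and ACTB (log2 fold change 0.10, SE 0.0239, adjusted p = 0.0199) after it. Of 40 HNRNP and SR splicing factor genes, 5 were higher and 1 lower, against 1.86% and 0.732% of all genes, and the higher calls moved between 1 and 5 when 1 dish was left out. SRSF2, which the study also followed, measured 582, 576 and 553 CPM in G245S and 506, 513 and 513 CPM in R273H (log2 fold change 0.16, SE 0.0236, adjusted p = 2.41e-04), and HNRNPA0, HNRNPAB, HNRNPL and HNRNPM had log2 fold changes of 0.13, 0.11, 0.09 and 0.08. HNRNPA1L3 was the lower one (log2 fold change -0.11, adjusted p = 0.0321). SRSF2 was the 1 call among the 6 RNA-processing genes followed in the study. Of those not called, ZC3H7B, an RNA-binding zinc-finger protein, gave log2 fold change 0.03, SE 0.050, adjusted p = 0.842, and TUT4, which adds uridines to RNA ends, gave log2 fold change 0.01, SE 0.0403, adjusted p = 0.963. Of 22 immediate early genes, MYC alone was called, at 207, 205 and 199 CPM in G245S and 226, 224 and 223 CPM in R273H (log2 fold change -0.14, SE 0.0280, adjusted p = 0.00477), and 0 were higher (1 without adjustment and 0 in DESeq2). For these 22 genes DESeq2 gave an adjusted p to only 6. Collagens and integrins (45 tested), interferon-stimulated genes (27) and microRNA pathway genes (19) gave 0 calls in edgeR and in DESeq2. DESeq2 gave an adjusted p for only 13, 8 and 16 of them. Without adjustment they gave 5, 3 and 1 higher and 3, 1 and 1 lower.

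**Figure D5:**
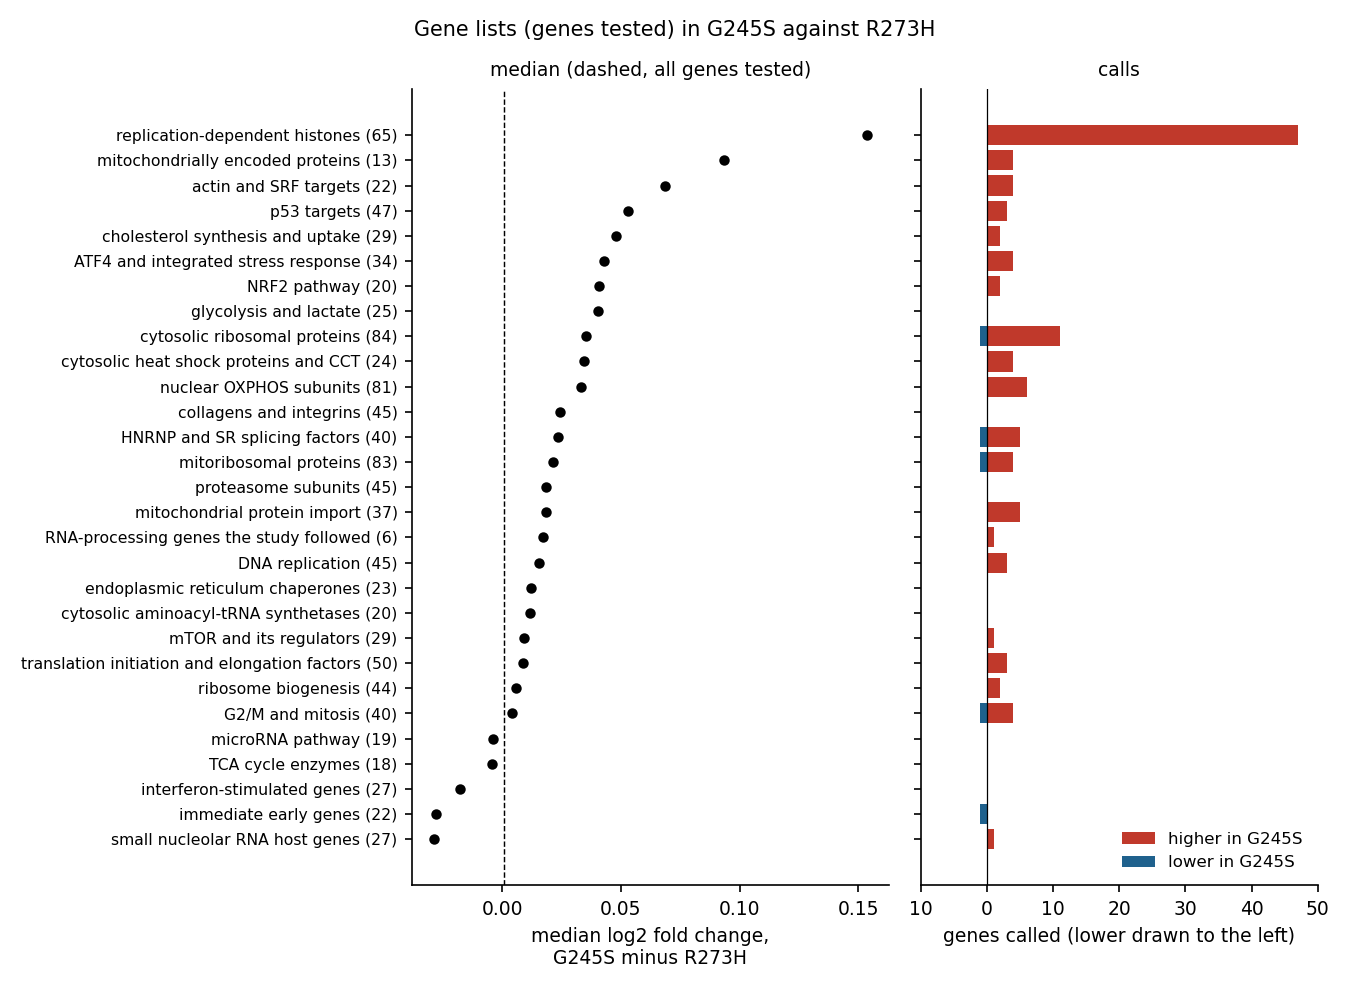
Left, median log2 fold change of G245S over R273H in each gene list, with the number of genes tested in parentheses and the median of all genes as a dashed line; right, genes called higher (red) and lower (blue, drawn to the left). Histones stand out with a median of 0.15 and 47 calls, and all other lists have medians of 0.09 or less.

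Small noncoding RNAs were called lower more often than higher, 19 against 7 of 406. Of 99 small nucleolar RNAs, guides of ribosomal RNA modification encoded mostly in introns, 10 were called lower in G245S and 0 higher, against 0.732% of all genes called lower. Without adjustment 24 were lower and 3 higher, and DESeq2 gave an adjusted p for only 4 of the 99, none called. SNORA75 (chromosome 2, positions 231455800 to 231455936, minus strand) measured 1.46, 1.88 and 2.10 CPM in the G245S dishes and 4.51, 4.81 and 4.40 CPM in the R273H dishes. The groups did not overlap (log2 fold change -1.32, SE 0.168, adjusted p = 4.35e-05), and WT lay between them at 2.91 ± 0.371 CPM. SNORD6 measured 0.921, 0.864 and 0.514 CPM in G245S and 2.32, 2.31 and 2.63 CPM in R273H (log2 fold change -1.66, SE 0.256, adjusted p = 3.87e-04). SNORA50A was at 0 counts in all 3 G245S dishes and at 0.445 to 0.732 CPM in R273H. Among 131 miscellaneous small RNAs, 5 copies of the 7SK and 7SL RNAs were lower and 0 higher, with 25 lower and 3 higher without adjustment and an adjusted p from DESeq2 for only 7, none called. RN7SKP163, the largest of these changes, gave log2 fold change -0.79, SE 0.150, adjusted p = 0.00290. Small RNAs of this kind are not translated, and all 10 of the small nucleolar RNAs called lower overlap another gene on their strand, whose reads cannot be told from theirs. As a whole, small noncoding RNAs made up 0.477% ± 0.00884 of counts in G245S and 0.479% ± 0.0169 in R273H.

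Of 3915 pseudogenes, 55 (1.40%) were higher and 26 (0.664%) lower, and of 1678 long noncoding RNAs, 10 (0.596%) were higher and 10 (0.596%) lower, shares near or below the 1.86% and 0.732% of all genes. The largest called changes among noncoding genes averaging 100 counts or more were RPL12P12 (log2 fold change 0.54, SE 0.128, adjusted p = 0.0176), PTMAP9 (log2 fold change 0.50, SE 0.0878, adjusted p = 0.00160) and RPS10P14 (log2 fold change 0.50, SE 0.135, adjusted p = 0.0422) on the higher side. On the lower side RPL21P119, with 6.02, 3.51 and 4.58 CPM in G245S and 10.2, 7.76 and 8.41 CPM in R273H, gave log2 fold change -0.91, SE 0.154, adjusted p = 0.00195. It stands beside the lower level of its parent RPL21, with which it can share reads. SNHG20 was the 1 call among 27 small nucleolar RNA host genes (log2 fold change 0.35, SE 0.0804, adjusted p = 0.0148), with 0 lower (3 without adjustment, 0 in DESeq2).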

How the data were processed

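The authors deposited 1 table of expected counts of ribosome footprints per gene, with 1 column per dish. Per the labels and the methods, reads were trimmed, filtered for ribosomal RNA and aligned with STAR to GRCh38. The counting tool, the annotation release and strand handling are not given in the sources used here. Expected counts were rounded to whole numbers. All 9 libraries were fitted by group in edgeR 4.0.16 (TMM scaling, filterByExpr, robust quasi-likelihood test, Benjamini-Hochberg adjustment), with 6 residual degrees of freedom, and the 3 G245S dishes were contrasted with the 3 R273H dishes. The fit was tested on simulated data. Gene annotation came from GENCODE 44, which matched 62666 of 63241 identifiers, and the sequences from GRCh38. Genes were named as the 12 largest called changes each way among protein-coding genes averaging 100 counts or more in the mutants, with no overlap between them, the 3 largest each way among other biotypes, genes the study followed, and up to 4 called members of each list with the smallest p. Members and lists were chosen with earlier results of these data known. DESeq2 1.42.0 was an alternative. It gave no adjusted p to some genes of many lists, so its calls in a list can rest on fewer genes than were tested. Footprints of the p53 gene itself are not reported here.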

Additional observations from a re-analysis of the deposited data

How the results depend on the processing

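None of the 91 called named genes changed sign under an alternative that gave it a value, while TOMM20, ZC3H7B, TUT4 and MDM2, not called and near 0, did under some. With the trend removed the list medians of mitochondrial import (0.02 to -0.0037), mTOR (0.01 to -0.0049), the TCA cycle (-0.0044 to 0.0064) and the microRNA pathway (-0.0039 to 0.019) changed sign. Against 513 calls (368 higher, 145 lower), a minimum fold change of 1.2 left 3 (1 and 2). Leaving out dish 3 of every group gave 1026 (721 and 305), and 431 of the 513 were kept. Leaving out 1 dish gave between 162 and 712 calls, 118 to 487 higher and 44 to 225 lower: 162 without G245S dish 1, 204 without G245S dish 2, 222, 233 and 295 without R273H dishes 1, 2 and 3, and 712 without G245S dish 3. Without a filter on low counts 293 genes were lower, and in DESeq2 80 were. Of the 91 named genes that were called, 50, 44 and 10 lost the call without G245S dishes 1, 2 and 3, and 31, 40 and 37 without R273H dishes 1, 2 and 3. Removing each library's trend in coding length and GC content lost 20 of them, and the minimum fold change of 1.2 lost all 91. DESeq2 gave no adjusted p for 29 and called the other 62. The cause of these shifts was not tested.

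The dish numbers share no stated batch. Residuals of same-numbered dishes correlated at 0.0421 to 0.229 and those of other dishes at -0.184 to 0.0583 (12656 genes), and within each other group every dish correlated best with its own number except R273H dish 2, which correlated better with WT dish 1 (0.0583) than with WT dish 2 (0.0421), a hint from the data and not the design. With dish number as a replicate block, 1262 genes were called (810 higher, 452 lower), 507 of the 513 among them, and with the trend removed as well 805 (566 and 239).

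An uncalled gene was not shown to be equal between the mutants, least of all at low counts. Pooling by group, the lack of a matched RNA library in these comparisons and near-identical gene copies limit every value above.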
